A study of Mus musculus with 91 samples.

Results

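The 53 genes described here act in the G2 phase of the cell cycle and in mitosis. They were chosen as a list of symbols, and a gene counted as a member of a deposited count table where that table held a row for it. Of the 53 genes, 49 had a row in all 8 tables, which together list 20378 genes. Each table of RNA-seq counts from mouse splenic regulatory T cells (Tregs) held from 50 to 53 of them. Pbk had no row in the in vitro table and Pbk and Ttk had none in the 168 h table, Kif2c had none in the in vitro table, and Kif11 had rows only in the 168 h, high-dose and restimulation tables, so these genes were not analysed elsewhere.

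The cells were Tregs sorted from the spleen of C57/BL6 mice that carry a red fluorescent protein reporter of Foxp3, the transcription factor that defines Tregs. Mice received PBS, mouse IL-2 (mIL-2) or a fusion protein of mIL-2 and CD25, called FP, and all groups share this strain, reporter and tissue. Each treatment had 4 libraries at 1.5 h and again at 16 h. The 4 h groups held 3 PBS, 4 IL-2 and 3 FP libraries, those at 72 h 3 PBS, 3 IL-2 and 4 FP, and those at 168 h 3 PBS and 4 FP. Further tables held an in vitro comparison at 1.5 h (3 PBS and 3 IL-2), a high-dose comparison (3 PBS and 3 IL-2, with neither dose nor time in the labels), and a restimulation at 1.5 h with 3 libraries of PBS followed by PBS, 3 of PBS followed by 1 FP injection (single FP), and 4 of FP followed by a second FP injection (repeated FP). The treatment text, which is the same for every sample, names an FP dose of 20 ug, a PBS volume of 100 uL and a time of 1.5 h, and gives no amount of IL-2. The labels state neither the age or sex of the mice nor whether a library is 1 animal or a pool, so p-values measure the spread between these libraries, which may be technical.

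Library totals ranged from 12212262 to 46108114 counts. The common biological coefficient of variation was lowest in vitro (4.48%) and at 16 h (11.2%) and highest in the high-dose (40.7%) and 4 h (38.4%) tables. All 8 markers of Tregs, Foxp3 and Il2ra among them, had counts in every group. In the restimulation table, single-FP library 1 stood apart, with Il2ra, the gene of CD25, at 566 CPM (counts relative to the library total, scaled for library composition by TMM) against 1785 and 1708 in single-FP libraries 2 and 3 and 569 to 639 under PBS. Results that compare single FP are given with and without it. The strand setting of the authors' counting is not given in the sources used here, and 11 members overlap a gene on the other strand (Ccna2, Cdc20, Ube2c, Kif4, Nusap1, Tacc3, Kif20a, Prc1, Ncapg, Plk1 and Ckap2l), so reads of the partner could be counted with them. These are bulk samples, in which more dividing cells and more RNA per cell cannot be told apart.

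A cell that has copied its DNA enters mitosis when the kinase CDK1, bound to cyclin A or cyclin B, is switched on, and PLK1 and the Aurora kinases then drive spindle assembly and chromosome alignment. The spindle checkpoint, with BUB1, BUB1B, TTK and MAD2L1, holds the anaphase-promoting complex and its activator CDC20 back until every kinetochore is attached, after which UBE2C-dependent ubiquitylation, separase (ESPL1) and the cytokinesis machinery finish the division. Many of these genes are transcribed late in the cycle under MuvB complexes with B-MYB (Mybl2) and FOXM1, which act through a promoter element named the cell cycle genes homology region, often beside CCAAT boxes bound by NF-Y, while genes of DNA replication depend on E2F and come earlier. IL-2 is the main growth factor of Tregs, which carry its high-affinity receptor with CD25 at rest.

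Promoters of 4 members are shown because they carry both elements just upstream of the start site and belong to genes that the time course separates: Cdk1, Top2a and Cdc20, whose change after FP was larger at 72 h than at 16 h, and Kntc1, for which it was not. Each line gives the 150 bases that end at the RefSeq start site (GRCm38.p6), 5′ to 3′ on the strand of the gene, with capitals for the core TTTGAA of the homology region or its reverse complement TTCAAA and for CCAAT or its reverse complement ATTGG.
Cdk1: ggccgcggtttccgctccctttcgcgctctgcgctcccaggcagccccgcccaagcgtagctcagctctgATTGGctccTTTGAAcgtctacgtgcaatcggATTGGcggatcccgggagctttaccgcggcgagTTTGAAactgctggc
Top2a: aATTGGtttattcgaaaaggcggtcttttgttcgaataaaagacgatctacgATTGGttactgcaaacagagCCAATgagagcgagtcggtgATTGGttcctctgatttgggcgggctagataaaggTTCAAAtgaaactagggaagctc
Cdc20: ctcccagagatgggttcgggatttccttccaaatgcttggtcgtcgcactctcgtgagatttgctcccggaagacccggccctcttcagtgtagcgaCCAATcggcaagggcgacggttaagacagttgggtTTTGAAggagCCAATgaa
Kntc1: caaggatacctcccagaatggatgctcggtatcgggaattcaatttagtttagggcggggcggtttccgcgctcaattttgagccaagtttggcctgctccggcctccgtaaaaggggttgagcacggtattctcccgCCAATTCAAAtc
These stretches are chr10:69352913-69353062 (minus strand), chr11:99024190-99024339 (minus strand), chr4:118437344-118437493 (minus strand) and chr5:123749576-123749725 (plus strand). The TTTGAA match nearest the start site begins 15 bases upstream of it in Cdk1, 23 in Top2a, 18 in Cdc20 and 8 in Kntc1, and in Kntc1 the CCAAT and TTCAAA matches share a base.

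RefSeq promoter windows, 250 bases before to 50 bases after a start site, were at hand for 45 of the 53 members. TTTGAA on either strand was found in 33 of these 45 members (73.3%) and in 20.2% of 27025 genes with such a window. CCAAT on either strand was found in 32 members (71.1%) and in 41.1% of genes. Both were found in 29 members (64.4%) and in 7.97% of genes. The E2F-type core GCGGGAA was found on either strand in 1 member, Ncapg (2.22%), and in 5.29% of genes. A match is a description of letters and not of a bound site.

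Under PBS the members differed widely in level. Per kilobase of exon, Smc4, a condensin subunit, had the highest level of the 52 members with a row at 16 h, at 172 CPM per kb (SD 36.8, n = 4). Cenpa, the centromeric histone H3 variant, followed at 7.59 and Ncapd2, another condensin subunit, at 5.73. The checkpoint kinase gene Ttk was lowest, at 0.0882 CPM per kb. Smc4 alone made up between 29.3% and 79.0% of the summed CPM of the members in the 26 PBS libraries, and sums below therefore leave it out and run over the 48 other members present in all tables. That sum lay between 240.6 and 393.4 CPM in the PBS libraries of the 5 time points and the high-dose table, between 494.7 and 514.2 in vitro, and between 556.4 and 578.9 in the restimulation table, with each table scaled on its own.

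**Figure D1:**
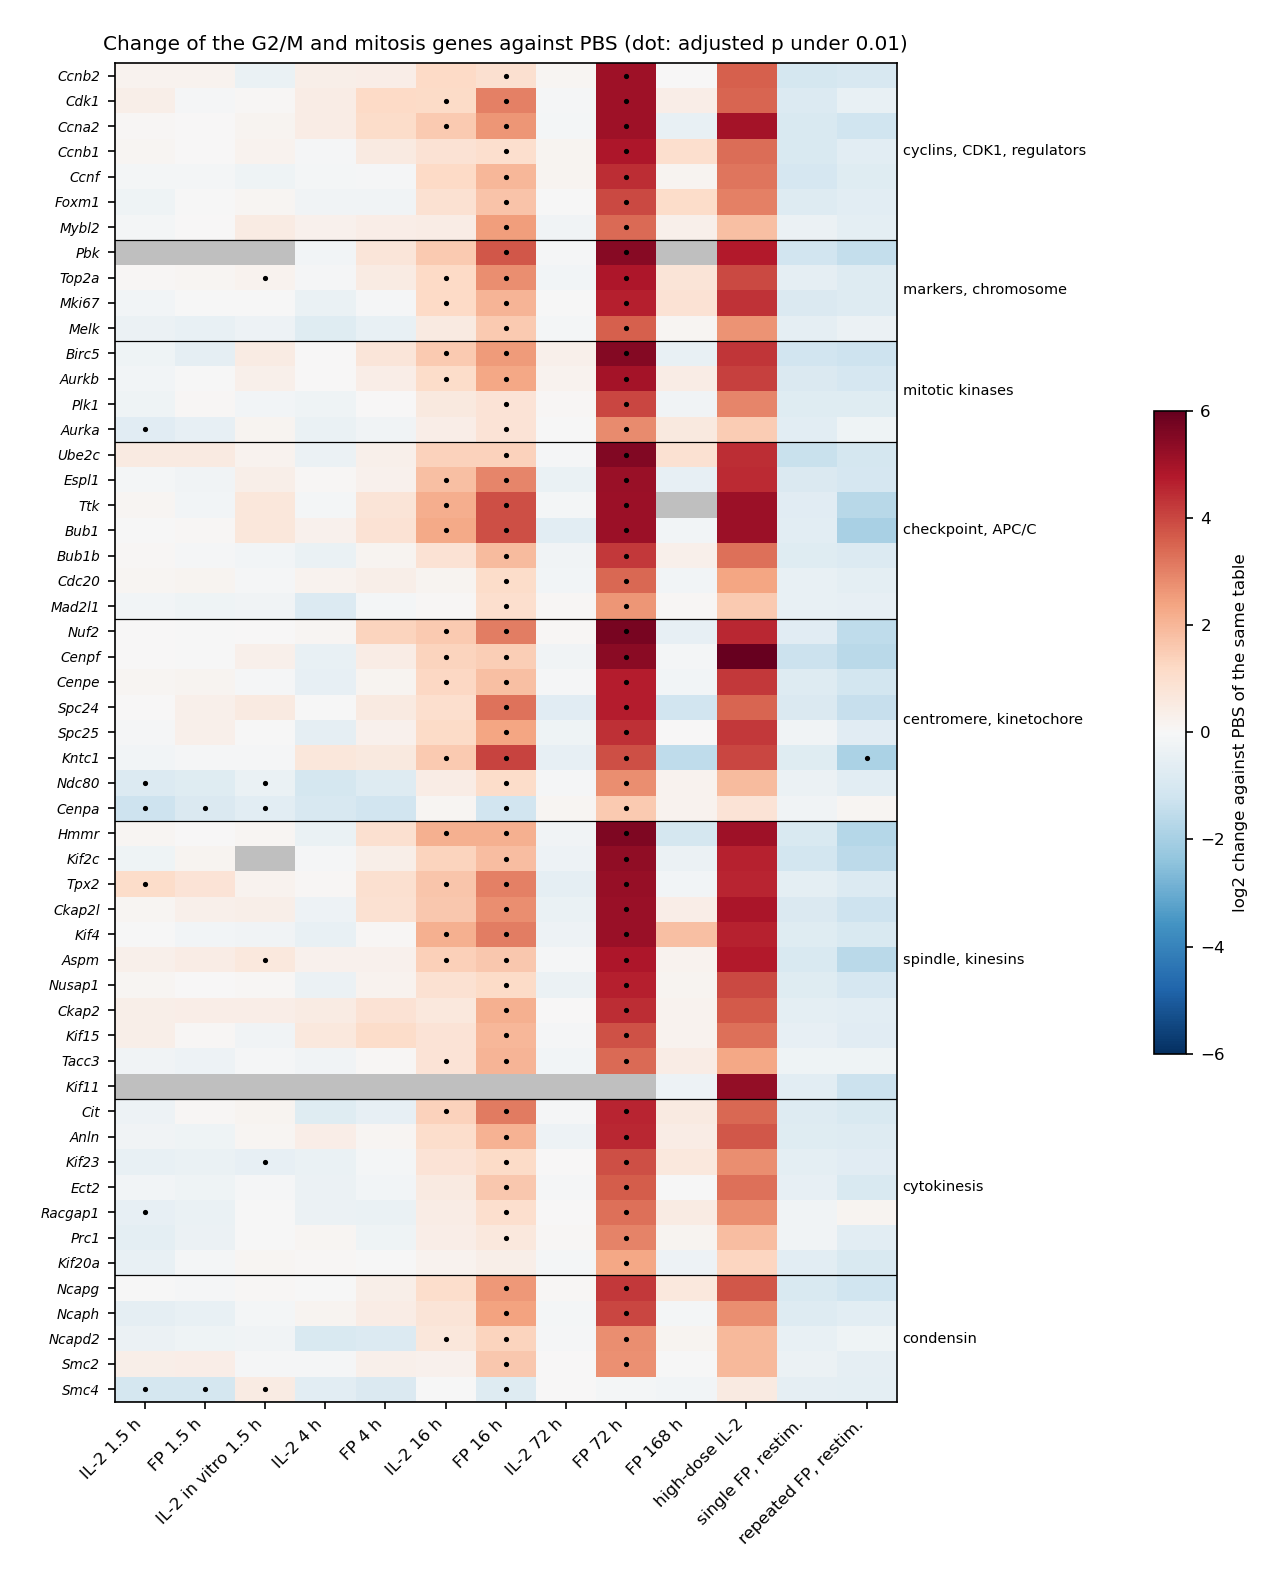
Log2 change of each of the 53 members against PBS of the same table (rows, grouped by role) in 13 comparisons (columns); red is higher and blue is lower than PBS, grey is a member with no tested row, and a dot marks an adjusted p under 0.01 (edgeR). Dots fill almost the whole FP columns at 16 h and 72 h, are scattered in the IL-2 column at 16 h, and are absent from the high-dose column, where every colour is nonetheless red.

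At 1.5 h the share of members called, both directions counted, was below the share of all genes called. IL-2 lowered 5 of 51 tested members and raised 1, against 5.79% of all genes lowered and 8.39% raised (edgeR quasi-likelihood test, adjusted p under 0.01 over all genes, as for every call below). The median change of the members was -0.11 on the log2 scale, against -0.01 over all genes tested. Cenpa was at 47.1, 58.7, 53.4 and 44.0 CPM in the PBS libraries and at 18.8, 27.1, 21 and 18.8 after IL-2. No IL-2 library reached the lowest PBS library, and the fall was 1.24 (log2 change -1.24, SE 0.13, adjusted p = 8.36e-06). Smc4 was at 967.8, 955.4, 1092.7 and 854 CPM under PBS and at 409, 567, 513 and 356 after IL-2 (log2 change -1.07), again with no overlap. Ndc80, a kinetochore component that holds microtubules, went from 8.00 to 4.53 CPM on average (-0.82), Aurka from 4.26 to 2.61 (-0.70, adjusted p = 0.00987) and Racgap1, a subunit of the central spindle complex, from 15.6 to 11.2 (-0.48). The member that rose was Tpx2, a spindle assembly factor and activator of Aurora A, from 2.38 to 5.11 CPM (1.10, adjusted p = 0.00101). It was at 2.63, 1.85, 2.54 and 2.50 CPM under PBS and at 5.50, 3.90, 5.76 and 5.27 after IL-2.

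After FP at 1.5 h, 2 of 51 members were lower and none was higher, against 2.28% of all genes lower and 4.39% higher. These were Smc4 (967 to 473 CPM on average, log2 change -1.03) and Cenpa (50.8 to 27.9 CPM, -0.87). Tpx2 (0.81, adjusted p = 0.0152) and Ndc80 (-0.71, adjusted p = 0.0126) did not pass. DESeq2 called 5 members here, adding Tpx2, Ndc80 and Racgap1, and the share of all genes it called is not given here. FP and IL-2 were not separated at this time: edgeR and DESeq2 called 0 members between them (0% of all genes by edgeR), and 3 members had an unadjusted p under 0.05.

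Tregs treated with IL-2 in vitro for 1.5 h showed 3 members higher and 3 lower among 50 tested, against 7.4% of all genes higher and 6.54% lower. Cenpa was at 136, 126 and 129 CPM under PBS and at 83.3, 88.7 and 83.6 with IL-2 (log2 change -0.61), and Ndc80 fell from 16.7 to 12.8 CPM (-0.38). Both were also lower after injection of IL-2. Smc4 moved the other way in vitro, from 905.8, 975.6 and 1004.5 CPM to 1353.8, 1373.1 and 1311.2 (0.48). Kif23, the kinesin of the central spindle, fell from 104 to 73.9 CPM (-0.49), while Aspm, a spindle pole protein, rose from 3.78 to 5.92 (0.65) and Top2a, the topoisomerase that untangles sister chromatids, from 34.4 to 40.4 (0.23). Kif23 stood at 104 CPM in the cultured PBS cells and at 5.82, 6.57, 4.24 and 9.33 CPM in the PBS libraries of the mice at 1.5 h, values that come from tables scaled separately. Leaving out IL-2 library 1 reduced the 6 calls in vitro to 3, Smc4, Cenpa and Kif23.

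At 4 h no member passed the test in any comparison of the main edgeR fit, which is unpaired, in the table with the second widest spread. For IL-2 against PBS, 6 of 52 members had an unadjusted p under 0.05, 5 of them lower, with 0.567% of all genes called higher and 0.0851% lower. DESeq2 called 3 members lower, Smc4, Ncapd2 and Ndc80, and with the replicate number as a block 1 was lower, Ncapd2 (log2 change -0.85, adjusted p = 0.00811). For FP against PBS, 6 members had an unadjusted p under 0.05, with 0.72% of all genes called higher and 0.193% lower. With the replicate block 3 were lower, Cenpa (-1.2, adjusted p = 0.0065), Ncapd2 (-0.82, adjusted p = 0.00655) and Smc4, and DESeq2 added Kif15 as higher. The shares of all genes called by DESeq2 and by the block fit are not given here. That block sets FP library 2 beside PBS library 2. The deviations of FP library 2 followed those of PBS library 1 more closely (r = 0.61 against 0.18), and its column name shares a number with that library. The block thus sets FP library 2 beside a library other than the one its column name points to. These 3 calls, and the IL-2 call from the same fit, rest on that pairing. A block by the column names was not fitted. Smc4 was at 959.8, 950.8 and 1004.2 CPM under PBS, at 693, 622, 560 and 619 after IL-2 and at 493, 675 and 435 after FP, so that neither treated group overlapped PBS. Cenpa was at 36.6, 57.7 and 42.3 CPM under PBS, at 27.5, 24.4, 20.1 and 22.5 after IL-2, and at 28.9, 19.7 and 13 after FP, also without overlap. By the sample labels, FP libraries 2 and 4 were read in lane 1 and all other 4 h libraries of a labelled group in lane 2. The column names of the 4 h counts carry other sample indices and no lane, so the lane of these counts is uncertain. With the lane as a covariate edgeR again called 0 members, and the median log2 change of the members went from 0.28 to 0.53 for FP against PBS and from 0.37 to 0.75 for FP against IL-2. Between FP and IL-2, edgeR and DESeq2 called 0 members (0% of all genes by edgeR), and 2 had an unadjusted p under 0.05.

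**Figure D2:**
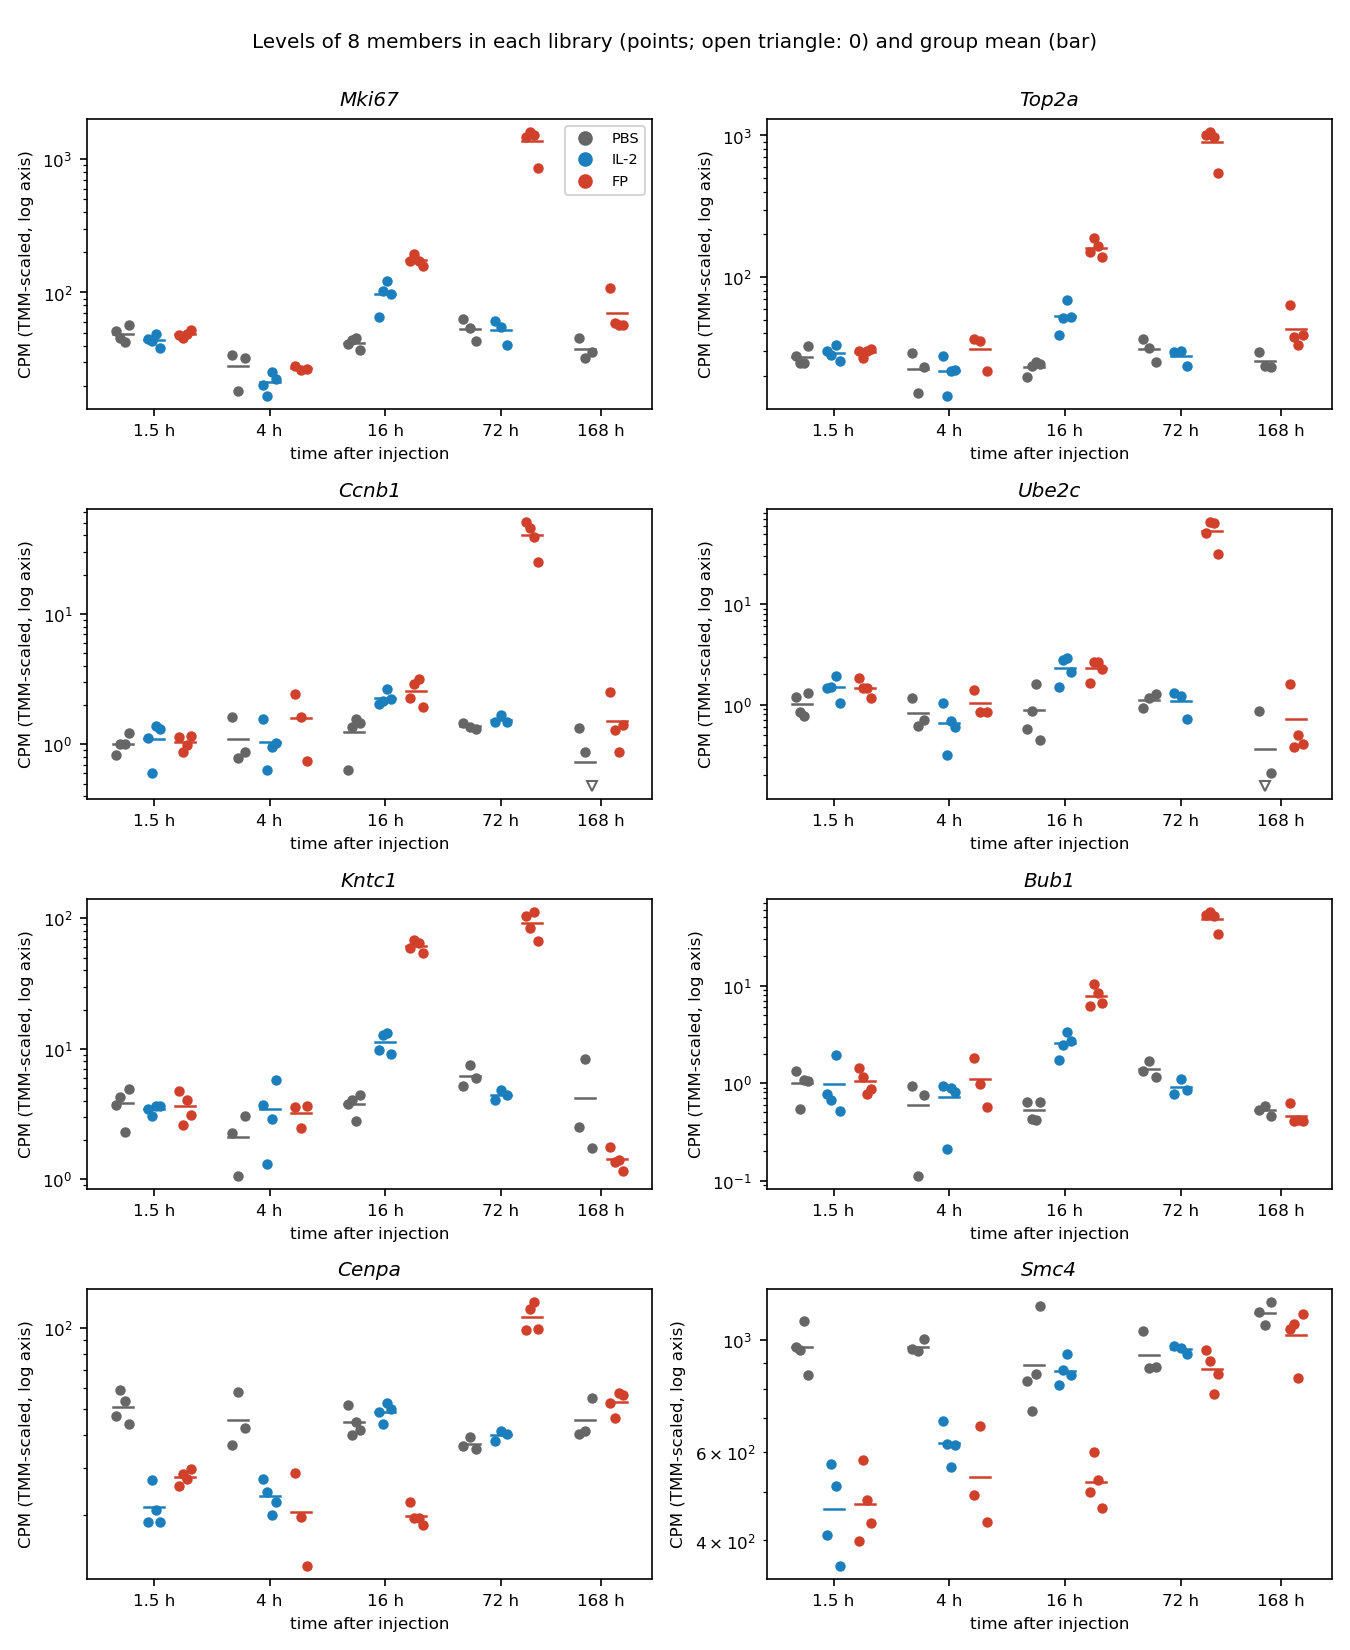
Level of 8 members in each library (points, TMM-scaled CPM on a log axis, open triangle for 0) and the group mean (bar) against time after injection, with PBS grey, IL-2 blue and FP red; each time point is a table scaled on its own. Mki67 and Top2a step up at 16 h and again at 72 h after FP, Ccnb1 and Ube2c step up mainly at 72 h, Kntc1 is near its 72 h level at 16 h, and Cenpa and Smc4 are low after FP from 1.5 h to 16 h and are back at or above PBS at 72 h.

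At 16 h IL-2 had raised mitosis genes modestly. Of 52 members 20 rose and none fell, against 0.344% of all genes raised and 0.00573% lowered, the median log2 change was 1.04 against -0.01 for all genes tested, and 46 members had an unadjusted p under 0.05. Mki67, the proliferation marker that coats mitotic chromosomes, was at 41.1, 44.4, 45.9 and 37.2 CPM under PBS and at 65.8, 102, 122 and 97.1 after IL-2 (1.2, adjusted p = 0.000632). Bub1, a checkpoint kinase, was at 0.641, 0.429, 0.420 and 0.636 CPM under PBS and at 1.74, 2.47, 3.3 and 2.72 after IL-2 (2.26, SE 0.29, adjusted p = 0.00124). Neither gene's groups overlapped, and in 39 of 52 members all IL-2 libraries lay above all PBS libraries. The share of all genes so separated is not given here, while 2021 of 17453 genes had an unadjusted p under 0.05. The next largest changes were in Ttk (2.2), Hmmr, a spindle-associated protein (2.14), Kif4, the chromokinesin (2.12) and Espl1 (1.83), and the smallest among those called in Ncapd2 (0.69), Tacc3, a spindle microtubule protein (0.82), and Aurkb (1.12).

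By role, IL-2 raised 2 of 7 genes of cyclins, CDK1 and their transcriptional regulators (Ccna2 1.57, Cdk1 1.13), 5 of 10 spindle genes, 4 of 8 centromere and kinetochore genes with Kntc1 at 1.58 (3.76 to 11.2 CPM), and 3 of 7 checkpoint and anaphase genes. A group of 4 held the mitotic kinase genes Plk1, Aurka and Aurkb with Birc5, which encodes no kinase. Of these 2 rose (Birc5 1.57 and Aurkb), as did 1 of 7 cytokinesis genes (Cit 1.38) and 1 of 5 condensin genes. The 32 members that did not pass included Ccnb1, Plk1 and Cdc20. Ccnb1, the cyclin of mitotic entry, was at 1.25 CPM under PBS and 2.27 after IL-2 (0.85, adjusted p = 0.172), Plk1 at 2.91 and 4.38 (0.60), and Cdc20 at 3.22 and 3.65 (0.18). The number called depended on the fit, and the shares of all genes called by the other fits are not given here. It was 5 when only the IL-2 and PBS libraries were fitted (Bub1, Cit, Kntc1, Mki67 and Top2a), 34 by DESeq2, 9 without IL-2 library 2 or without IL-2 library 3, and 12 without PBS library 2.

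After FP at 16 h nearly every member had risen. Of 52 members 49 rose and 2 fell, against 14.4% of all genes raised and 14.3% lowered, with a median log2 change of 1.98 against -0.05 over all genes. The largest rise was in Kntc1, the ROD subunit of the RZZ complex that brings checkpoint proteins to kinetochores. Kntc1 was at 3.78, 4.04, 2.82 and 4.39 CPM under PBS and at 59.6, 67.9, 64.3 and 54.3 after FP (4.03, SE 0.15, adjusted p = 7.4e-12), so that every FP library was far above every PBS library. Bub1 (3.88), Ttk (3.87), Pbk, a mitotic kinase gene (3.73), and Spc24, a subunit of the NDC80 complex (3.26), came next. Cit, the citron kinase of cytokinesis, rose from 4.93 to 42.9 CPM (3.12), Cdk1 from 1.89 to 15.5 (3.03), Top2a from 23.2 to 162 (2.80), Ccna2 from 2.27 to 14 (2.63) and Mki67 from 42.1 to 174 (2.05).

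Within the cyclins and regulators all 7 genes rose after FP at 16 h, but unevenly: Cdk1, Ccna2 and Mybl2 (2.49) moved most, Foxm1 (1.69) less, and the B-type cyclins least, Ccnb1 from 1.25 to 2.57 CPM (1.03) and Ccnb2 from 1.76 to 3.46 (0.97). Ccnb1 was at 0.641, 1.35, 1.56 and 1.46 CPM under PBS and at 2.29, 2.89, 3.18 and 1.95 after FP, which did not overlap. The smallest rises were in Prc1, which bundles midzone microtubules (0.64), Aurka (0.81) and Plk1 (0.82), and Kif20a, a cytokinesis kinesin, did not pass (0.35, adjusted p = 0.0128). The 2 members that fell were Cenpa, at 51.6, 40.1, 44.5 and 41.8 CPM under PBS and 22.4, 19.6, 19.5 and 18.4 after FP (-1.15, adjusted p = 7.09e-08), and Smc4, at 831, 723, 857 and 1168.5 CPM under PBS and 500, 599, 527 and 464 after FP (-0.78). In both genes every FP library lay below every PBS library.

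FP exceeded IL-2 at 16 h in 37 of 52 members and was below it in 2, against 16.8% and 14.9% of all genes, with a median difference of 1.01. Kntc1 (2.45), Spc24 (2.24), Pbk (2.14), Mybl2 (2.02) and Cdk1 (1.90) differed most. Cenpa (-1.29) and Smc4 (-0.74) had the lower level under FP. The 13 members not separated at this depth and number of libraries were Ccnb2 (-0.24), Hmmr, Ube2c (both -0.02), Cenpf (0.11), Kif20a (0.15), Ccnb1 (0.18), Aspm (0.19), Plk1 (0.22), Prc1 (0.25), Nusap1 (0.28), Kif23 (0.33), Aurka (0.40) and Kif2c (0.49). Among them Ube2c, the ubiquitin-conjugating enzyme of the anaphase-promoting complex, was at 1.49, 2.78, 2.89 and 2.09 CPM after IL-2 and at 1.62, 2.65, 2.63 and 2.25 after FP, and these groups overlapped.

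At 72 h the members were high after FP and were not separated from PBS after IL-2. FP raised 51 of 52 members and lowered none, against 17.3% of all genes raised and 13.1% lowered, with a median log2 change of 4.46 against -0.05 over all genes. Mki67 was at 62.9, 53.9 and 43.5 CPM under PBS, at 61.6, 55.1 and 40.5 after IL-2, and at 1449.0, 1585.3, 1510.7 and 862 after FP (4.66, SE 0.25, adjusted p = 7.46e-08). FP library 4 was the lowest of its group here, and it was the lowest in 50 of the 52 members, yet it lay far above PBS. Without it the number of members raised was again 51, and the median was 4.61. Nuf2 of the NDC80 complex (5.72), Hmmr (5.61), Ube2c (5.56), Birc5, the survivin subunit of the chromosomal passenger complex (5.52), and Pbk (5.46) rose most. Ube2c was at 0.928, 1.15 and 1.27 CPM under PBS and at 51.5, 65.4, 64.4 and 31.5 after FP.

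Every role took part at 72 h. All 7 genes of cyclins and regulators rose (median 4.86), with Ccnb1 from 1.38 to 40.1 CPM (4.86), Cdk1 from 2.3 to 78.8 (5.10) and Foxm1 from 4.95 to 76.8 (3.95). All 4 genes in the group of mitotic kinases and Birc5 rose (median 4.49, Plk1 from 2.81 to 45 CPM), as did all 7 checkpoint and anaphase genes (5.11), all 8 centromere and kinetochore genes (4.55), all 10 spindle genes (5.01) and all 7 cytokinesis genes (3.61). Of the 5 condensin genes 4 rose (2.80). Smc4 did not, at 1043.7, 882 and 884 CPM under PBS and 957.3, 910.5, 782 and 856 after FP (-0.10, adjusted p = 0.458), and these groups overlapped. The smallest rises were in Cenpa (36.9 to 110 CPM, 1.58), Kif20a (2.33) and Mad2l1 (2.64). Per kilobase, Mki67 reached 134 CPM per kb and Top2a 99.1 after FP, behind Smc4 at 168 among the members.

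IL-2 at 72 h raised or lowered 0 of 52 members by edgeR and by DESeq2 (0% of all genes by edgeR), and 1 member, Kntc1, had an unadjusted p under 0.05 (-0.49). The sum over the members without Smc4 was 324.6 to 393.4 CPM under PBS, 324.7 to 378.9 after IL-2 and 3950 to 6780 after FP. FP exceeded IL-2 in 51 of 52 members (17.9% of all genes), with Smc4 the exception (-0.13). At the same time 9 of 10 tested markers of myeloid cells, such as Csf1r and C1qa, were lower after FP, and the sum over the 11 with a row was 20.5 to 81.5 CPM against 304 to 778 under PBS, while none was at 0. The part of this in the members' change was not tested.

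The difference between the times was tested in one model over both tables, as the change of FP against its own PBS at 72 h minus that at 16 h. It was positive and past the threshold in 47 of 52 members and negative in none, against 8.6% of all genes higher and 7% lower at 72 h, with a median of 2.26. Ube2c (4.19), Ccnb2 (4.14), Cenpf, a kinetochore protein of G2 and M (3.95), Ccnb1 (3.82) and Nusap1, a spindle protein (3.50), differed most, and among those called Smc4 (0.68), Smc2 (1.14) and Tacc3 (1.35) differed least. The 5 members that did not pass were Kntc1 (-0.16, adjusted p = 0.669), Mybl2 (0.90), Bub1 (1.23), Ttk (1.27) and Pbk (1.72). Table and time cannot be told apart here beyond the use of each table's own PBS.

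A list of 24 genes of DNA replication and S phase gave other values in the same fits. After FP at 16 h all 24 rose, with a median log2 change of 2.56, among them Cdc6, a licensing factor (4.20), Uhrf1 (4.15), Chek1 (3.70) and Mcm5 (2.99). At 72 h all 24 were again higher, with a median of 2.66. The difference between the times was past the threshold in 4 of the 24 (Rrm2 1.63, Ccne1 1.36, Rrm1 1.00 and Tyms 0.93, all higher at 72 h), with a median of -0.06. Among the G2/M members, Kntc1 at 4.03 and 3.88 lies where the S-phase genes lie, and Ube2c at 1.37 and 5.56 farthest from them. No test set the lists against each other.

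**Figure D3:**
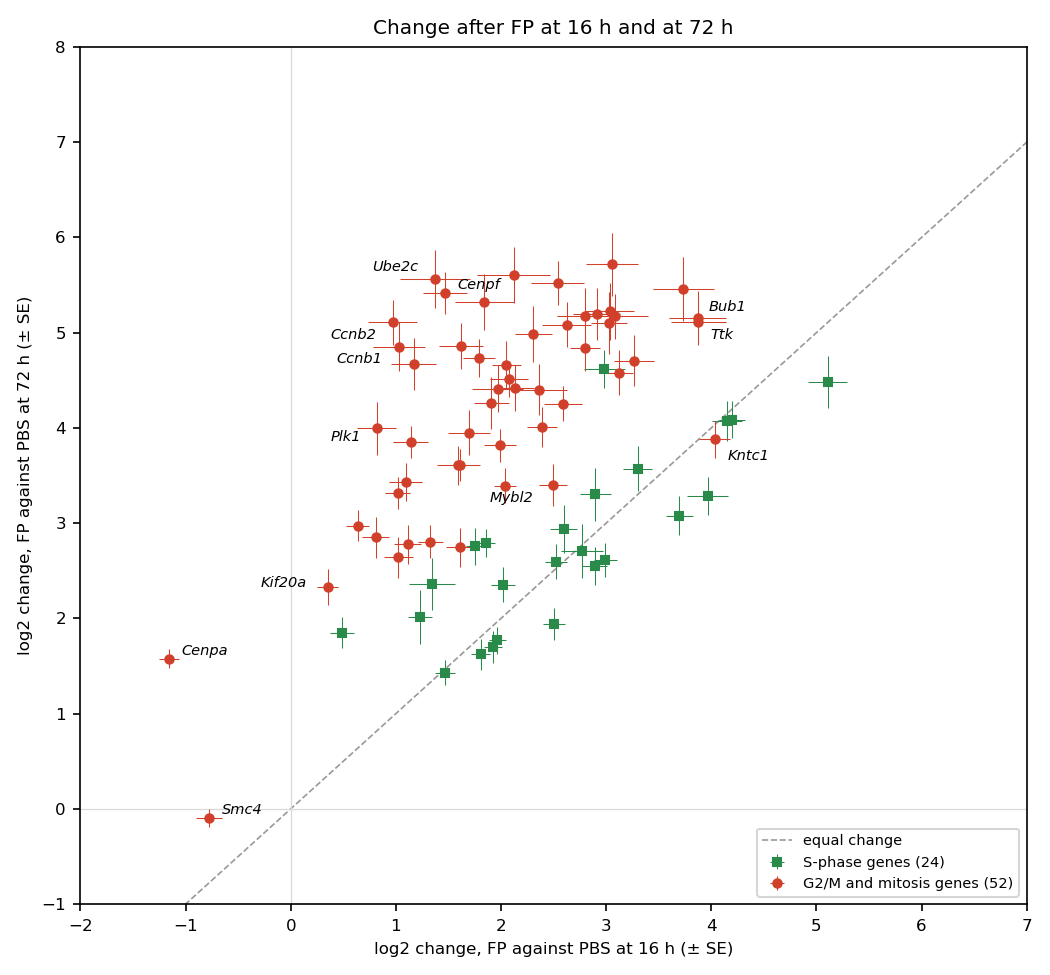
Log2 change of FP against PBS at 16 h (x axis) and at 72 h (y axis) with standard errors for 52 G2/M and mitosis genes (red) and 24 S-phase genes (green); the dashed line marks equal change. S-phase genes lie near the line, most members lie above it, Ube2c, Ccnb2, Cenpf and Ccnb1 are farthest above, and Kntc1 is on the line.

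Members whose promoter window held TTTGAA had a median difference between 72 h and 16 h of 2.31 (32 tested), and those without it 1.81 (12 tested), with ranges of -0.16 to 4.19 and 0.90 to 3.82. The ranges overlapped almost wholly, and Kntc1 and Cdc20, whose promoters are printed above and both hold the motif, differed by -0.16 and 2.34.

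A second list held 70 further genes of mitosis that are not members. After IL-2 at 16 h 10 of 69 tested rose, Kif14 (2.18) and Ncapg2 (0.98) among them. After FP 55 rose and 2 fell at 16 h with a median of 1.26, and 64 of 69 rose at 72 h with a median of 2.71, led in p-value by Knl1, the kinetochore scaffold (4.93), Kif14 (5.16), Spag5 (5.32) and Ska1 (6.04). Of 12 genes of the MuvB, DREAM and RB machinery, 5 rose and 3 fell after FP at 16 h: Tfdp1, a partner of E2F proteins, rose from 34.3 to 110 CPM (1.68) and Rbl1, which encodes p107, from 78.7 to 139 (0.82), while Rbl2, which encodes the quiescence-linked p130, fell from 187 to 126 (-0.57).

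A list of 13 genes that restrain the cycle had calls in both directions after IL-2 at 1.5 h and after FP at 16 h, and calls upward at 72 h. After IL-2 at 1.5 h 2 of 13 rose and 4 fell: Ccng2 (71.5 to 31.8 CPM, log2 change -1.17), Btg2 (-1.04), Gadd45a (-0.98) and Cdkn1b, the gene of the CDK inhibitor p27 (281 to 156 CPM, -0.85), fell, and Gadd45g (1.73) and Trp53 (0.37) rose. After FP at 16 h 7 fell and 3 rose, with Ccng2 at -1.41, Cdkn1b at -1.09 (245 to 115 CPM), Gadd45g at 1.91 and Btg2 at -1.16. At 72 h 5 rose and none fell: Cdkn2c, the gene of p18INK4c, went from 5.64 to 71.5 CPM (3.66), Cdkn1a, the gene of p21, from 0.603 to 13.4 (4.48), Gadd45g to 33.2 (2.92), Cdkn2d to 56.3 (1.09) and Ccng1 to 174 (0.65). The difference between 72 h and 16 h was positive and called in 7 of the 13.

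At 168 h after FP edgeR called no member and DESeq2 called 1. None of 51 passed the test by edgeR, against 0.201% of all genes higher and 1.01% lower, 8 had an unadjusted p under 0.05, and the median log2 change was 0.15. The member called by DESeq2 was Mki67 (0.89, adjusted p = 0.00562), and the share of all genes DESeq2 called is not given here. Mki67 was at 46.0, 32.1 and 36.2 CPM under PBS and at 109, 58.7, 56.7 and 57.1 after FP (0.88, adjusted p = 0.0947 by edgeR), and Top2a at 29.4, 23.7 and 23 under PBS and 63.2, 38.0, 33.2 and 38.8 after FP (0.77, adjusted p = 0.101). In both genes every FP library was above every PBS library, and FP library 1 was the highest of its group in 41 of 51 members. Without it the count was again 0 and the median -0.01. The lowest values were in Kntc1, at 2.53, 8.39 and 1.74 CPM under PBS and 1.77, 1.36, 1.41 and 1.15 after FP (-1.54, adjusted p = 0.162), where PBS library 2 alone was high.

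Against 72 h, the change after FP was smaller at 168 h in 48 of 50 members, with 6.4% of all genes lower and 2.2% higher, and a median difference of -4.08. Hmmr (-6.69), Nuf2 (-6.24), Birc5 (-6.03), Spc24 (-5.89) and Kif2c (-5.70) differed most, and Smc4 (-0.05) and Kif4 did not pass. Myeloid markers were low at 168 h too, with a summed 26.9 to 36.9 CPM over 9 genes after FP against 204 to 302 under PBS and 8 of the 9 called lower, and the part of this in the members' values was not tested. For IL-2 the change at 72 h was below that at 16 h in 50 of 52 members by sign, and 2 passed, Bub1 (-2.86) and Kntc1 (-2.05), against 0.0166% of all genes lower. Of the 2 calls, 1 or none was left when any 1 library other than IL-2 library 1 of 16 h was left out.

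After high-dose IL-2 all 53 members had a higher mean than under PBS, in a table with wide spread, with a median log2 change of 3.58 against -0.04 over all genes, and in 51 all 3 IL-2 libraries lay above all 3 PBS libraries. No member passed the test by edgeR, nor did any gene (0% of all genes), while 52 members and 2743 of 16668 genes had an unadjusted p under 0.05. DESeq2 called 50 members. The shares of all genes separated in this way, or called by DESeq2, are not given here. Mki67 was at 27.8, 29.0 and 7.05 CPM under PBS and at 707, 132 and 440 after IL-2 (4.33, SE 0.81, adjusted p = 0.0534). Plk1 was at 2.55, 2.98 and 3.05 CPM under PBS and at 26.1, 22.3 and 17.1 after IL-2 (2.93, SE 0.24, adjusted p = 0.0109). The first gene is uneven within both groups and the second is not. Smc4 had the smallest change (0.54, SE 0.52) and Cenpf the largest (6.32, SE 1.06). By role the medians ran from 4.61 in spindle genes and 4.43 in checkpoint and anaphase genes to 2.81 in cytokinesis and 1.94 in condensin genes, and the 24 S-phase genes had a median of 1.33.

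Within the high-dose table the members' spread followed their base composition in part. Top2a (43.4% GC in its longest transcript) was at 362, 90.1 and 236 CPM after IL-2 and at 21.2, 15.1 and 7.29 under PBS, and Smc2 (39.7% GC) at 78.2, 12.9 and 49.9 after IL-2 and 11.4, 21.8 and 3.72 under PBS. Cdc20 (55.6% GC), by contrast, was more even after IL-2, at 20.8, 22.6 and 13.9 CPM. Members of similar GC could differ: Birc5 (47.4% GC) was at 34.7, 32.8 and 22.9 CPM after IL-2, and Mki67 (46.6% GC) at 707, 132 and 440. Across the members, the deviation of a library from its group correlated with GC content with r from -0.77 to 0.73 over the 6 libraries, a description over genes that share a library. With a GC trend per library taken out, 35 members were called higher and none lower. The share of all genes called by that fit is not given here. Other alternatives gave 4 calls (RLE scaling) and 6 (without PBS library 2). Myeloid markers summed to 37.9 to 54.8 CPM after IL-2 and 80.3 to 93.8 under PBS, and the part of this in the members' change was not tested.

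**Figure D4:**
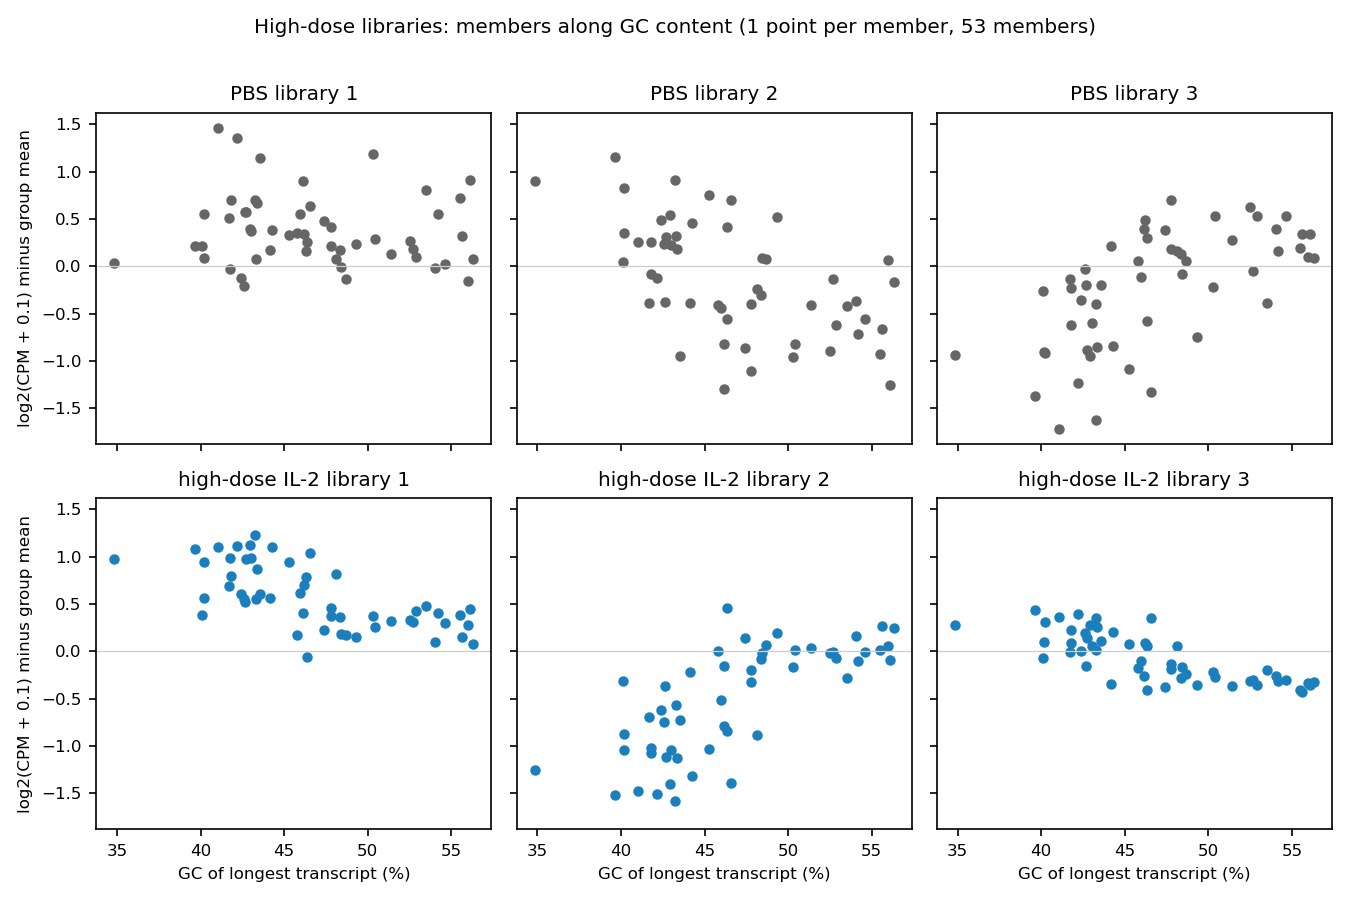
Deviation of each of the 53 members from its group mean, in log2(CPM + 0.1), against the GC content of its longest transcript, for the 3 PBS libraries (top) and the 3 IL-2 libraries (bottom) of the high-dose table. PBS library 3 and IL-2 library 2 are low in members of low GC and level in members of high GC, and PBS library 2 and IL-2 libraries 1 and 3 slope the other way.

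In the restimulation experiment the cells had been exposed to FP or PBS before a last injection 1.5 h ahead of collection. Nearly all members had a lower mean after FP than after PBS, and few passed the test. In the time course at 1.5 h after FP, the median log2 change was -0.04, with 22 members positive and 29 negative. For single FP the change was negative in all 53 members, with a median log2 change of -0.72 against 0.00 over all genes, 31 had an unadjusted p under 0.05, and 0 were called by edgeR, against 0.0111% of all genes lower and 0% higher. DESeq2 called 2, Ccnb2 (-1.06) and Birc5 (-1.15), and the share of all genes it called is not given here. Birc5 was at 5.95, 4.34 and 7.62 CPM after PBS and at 2.82, 2.35 and 2.91 after single FP, without overlap. Without single-FP library 1, which carried Il2ra at the PBS level, edgeR again called 0, the median was -0.69, all 53 changes were again negative and 27 had an unadjusted p under 0.05. DESeq2 without it called 1 member, Ccnf, and no longer Birc5 (-1.19, adjusted p = 0.0113) or Ccnb2 (-1.12, adjusted p = 0.0108).

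For repeated FP the change was negative in 51 of 53 members, with a median of -0.83, and 41 had an unadjusted p under 0.05. Kntc1 was the member called, at 6.48, 6.23 and 8.50 CPM after PBS, 4.20, 3.77 and 4.84 after single FP and 2.12, 1.60, 2.00 and 1.77 after repeated FP (-1.92, SE 0.18, adjusted p = 0.00164), against 0.256% of all genes lower and 0.373% higher. The 3 groups did not overlap. The Kntc1 call was lost without repeated-FP library 4, PBS library 1 or PBS library 2, while DESeq2 called 16 members lower and a fit with a GC trend per library 13. The shares of all genes called by these 2 fits are not given here. The 9 myeloid markers with a row summed to 30.5 to 73.1 CPM after repeated FP, 133 to 145 after single FP and 76.4 to 154 after PBS, and none was at 0. None of the 9 was called for repeated or single FP against PBS and 1 was lower for repeated against single FP, and the part of this in the members' change was not tested. Mki67 was at 85.7, 97.9 and 24.6 CPM after PBS, at 19.1, 44.3 and 49.6 after single FP and at 62.2, 12.7, 63.4 and 23 after repeated FP, and these groups overlapped.

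Between repeated and single FP 0 members were called by edgeR, against 0.44% of all genes higher and 0.145% lower, and 5 had an unadjusted p under 0.05, with a median of -0.17. Kntc1 was nearest (-1.19, adjusted p = 0.0102), and DESeq2 and the GC-trend fit each called it. Without single-FP library 1 edgeR again called 0, 7 had an unadjusted p under 0.05, the median was -0.14, and Kntc1 was at -1.2 (adjusted p = 0.0382). Without it DESeq2 again called Kntc1 (adjusted p = 0.00102) and the GC-trend fit did not (adjusted p = 0.0156). The summed level of the members without Smc4 was 556.4 to 578.9 CPM after PBS, 368.3 to 393.3 after single FP (368.3 to 384.6 without library 1) and 321.4 to 444.9 after repeated FP. In the time course at 1.5 h, scaled on its own, that sum was 351.1 to 385.3 CPM after PBS and 328.7 to 336.8 after FP. Why the PBS levels and the FP changes differ between these tables was not tested. As in the high-dose table, the members' deviations in single libraries followed GC content in the restimulation table (r from -0.71 to 0.73 over 10 libraries).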

How the data were processed

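RNA-seq of sorted splenic Tregs was deposited as 8 tables of raw read counts per Ensembl gene. Per the submitters' processing notes and the series text, the authors aligned reads to GRCm38 with STAR 2.5.0 and counted them with featureCounts 1.5.0, and the deposited counts hold only genes above 0.5 CPM in at least 3 columns. Library preparation used total RNA with ribosomal depletion, per the labels' protocols. The second runs of 16 libraries were summed with the first, leaving 75 libraries. Of these, 2 libraries at 4 h whose title and injected molecule disagree entered no comparison. Symbols were matched for 20309 of 20378 identifiers.

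Counts were tested with edgeR 4.0.16 in R 4.3.3 (quasi-likelihood, two-sided, TMM scaling, filterByExpr, 1 mean per group, all labelled groups of a table in 1 fit, Benjamini-Hochberg adjustment over all genes, threshold 0.01 as in the series text). Differences between times used 1 fit over both tables. Levels are TMM-scaled CPM, and SE is the absolute log2 change over the square root of F. The scripts were tested on simulated data.

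All 53 members were counted. A panel of 20 was named wherever discussed, with the 5 largest and 3 smallest changes among those called, members called against the majority, and up to 4 genes of each of 10 other lists by p. The members and lists were chosen with earlier results of these data known. Other genes singled out were chosen after their values were seen.

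Deviations of same-numbered libraries went together at 4 h for IL-2 (r 0.38 to 0.80) and FP (0.18 to 0.82) against PBS. They also did at 72 h for IL-2 (0.29 to 0.42), as a hint of pairing from the data. At 4 h libraries of unlike number reached r of 0.76 for IL-2 and 0.61 for FP. There FP library 2 followed PBS library 1 (r = 0.61) more than PBS library 2 (0.18), and its column name shares a number with that of PBS library 1. The column names of PBS, IL-2 and FP library 4 also share a number, as do those of PBS and IL-2 library 2. Between IL-2 and FP library 4 r was 0.80. At 72 h FP library 4 followed PBS library 3 (r = 0.40). FP library 2 of 72 h followed PBS library 1 (0.18) more than PBS library 2 (0.08). Alternatives were DESeq2 1.42.0, RLE scaling, no low-count filter, only the compared groups, the lane at 4 h as a covariate, the replicate block, single runs, leaving out each library, and, added after seeing the data, a GC trend per library, DESeq2 and that trend without single-FP library 1 of the restimulation, and the library-by-library refit of differences between times. Promoters came from RefSeq on GRCm38.p6.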

Additional observations from a re-analysis of the deposited data

Results flagged for a closer look

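In 14 of 192 sets of 4 libraries a single library lay far from the others of its group, a gap that chance gives in about 1 in 20 sets (9.6 of these). At 1.5 h FP library 2 was low in Foxm1 (4.64 CPM, others 5.18 to 5.25), Birc5 (0.798, others 1.51 to 1.56) and Cdc20 (2.40, others 3.4 to 3.55), and IL-2 library 2 was high in Prc1 (12, others 7.50 to 8.25). At 4 h IL-2 library 1 was high in Cdk1 (5.05, others 0.870 to 1.31), Aurkb (2.01, others 0.631 to 0.844) and Cdc20 (7.25, others 2.74 to 2.94), and IL-2 library 2 was low in Bub1 (0.211, others 0.815 to 0.931). At 16 h PBS library 4 was low in Aurkb (1.27, others 1.68 to 1.73).

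At 72 h FP library 4 was low in Ccna2 (74.9 CPM, others 134 to 141), Top2a (544, others 968.0 to 1054.9) and Ndc80 (35.5, others 55.0 to 58.4), and it was the lowest of its group in 50 of 52 members. At 168 h FP library 1 was high in Mki67 (109, others 56.7 to 58.7) and Bub1 (0.630, others 0.406 to 0.414).

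The change after FP differed between 72 h and 16 h in 47 members and between 168 h and 72 h in 48, and the change after IL-2 differed between 72 h and 16 h in 2 members, each by a test of the difference itself.

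The 4 h library titled as PBS replicate 3, whose injected molecule is labelled mIL-2/CD25 and which entered no comparison, had a sum over the 52 members with a row at 4 h of 1699 CPM of the library total, without TMM scaling, above the 1164 to 1542 of the PBS libraries by the same measure. Over the 51 members without Smc4 its sum was 385.5 unscaled CPM, against 264.9 to 359.4 under PBS. These sums differ in scaling and in the number of members from those of the report. On the unscaled measure its Il2ra was at 642 CPM, against 407 to 726 in the PBS libraries and 1762 to 2571 in the FP libraries.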

How the results depend on the processing

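No called value changed sign. Of 8714 values of single genes under alternatives, 8493 kept their side of the threshold, 150 lost the call and 71 gained one, and 255 of 299 counts of members stayed within 1.5 times the main count. Counts of members under alternatives are given without the share over all genes. The counts that moved further were these. DESeq2 called 5 members for FP at 1.5 h, 3 for IL-2 and 4 for FP at 4 h, 34 for IL-2 at 16 h, 1 for FP at 168 h, 50 at high dose, and 2, 16 and 1 for single FP, repeated FP and their difference in the restimulation. The GC trend gave 1 for IL-2 and 1 for FP at 4 h, 35 at high dose, 13 for repeated FP and 1 for repeated against single FP. RLE scaling gave 4 at high dose, the compared groups alone gave 5 for IL-2 at 16 h, and the first run alone gave 3 in vitro. Without single-FP library 1 DESeq2 called 1 for single FP and 1 for repeated against single FP. The replicate block gave 1 for IL-2 and 3 for FP at 4 h, 1 for FP at 168 h (Mki67, 0.92, adjusted p = 0.00301) and 0 for repeated FP, and its counts elsewhere, such as 24 for IL-2 and 51 for FP at 16 h, stayed within 1.5 times. No main fit was paired. The block used the replicate number, which at 4 h departs from the column names for FP library 2. Outside the 3 comparisons with a hint of pairing, it rests on that number. IL-2 and FP library 4 at 4 h also share a number in their column names. A block by column name was not fitted.

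Leaving out each library in turn gave from 9 to 24 calls for IL-2 at 16 h, from 3 to 6 for the in vitro IL-2 and from 0 to 6 for the high dose, 0 to 1 for repeated FP and 0 to 2 for IL-2 at 72 h against 16 h. It gave 48 to 52 for FP at 16 h, 51 to 51 at 72 h, 45 to 51 for the difference between these and 46 to 49 between 168 h and 72 h. The cause of these shifts was not tested.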

Other observations

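The second 4 h library in no group, titled as FP replicate 3 with an injected molecule labelled control PBS, had 290 CPM of the library total, without TMM scaling, summed over the 51 members without Smc4, and 517 unscaled CPM of Smc4. The library titled as PBS replicate 3 had 1313 unscaled CPM of Smc4. By the same measure Smc4 was at 871, 899.5 and 1182.6 CPM in the PBS libraries and at 430, 598 and 501 in the FP libraries. Il2ra, the gene of CD25, was at 2395 unscaled CPM in the library titled FP replicate 3, against 1762 to 2571 in the FP and 407 to 726 in the PBS libraries. In the count table the names of both columns carry the treatment of the title. Both libraries were kept out of every comparison because their labels disagree.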
